A study of Mus musculus with 12 samples.

Results

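The 40 genes described here are targets and relatives of ATF4, the transcription factor of the amino acid response. They form a list of symbols out of 23955 in the count table, chosen with earlier results of these data known. All 40 symbols had a row, and 39 passed the filter on low counts together with 12323 genes in all. The cells were mesenchymal stem cells from the bone marrow of female C57BL/6 mice, at passages 9 to 10. All were kept for 14 days in an adipogenic medium with insulin at 5 ug/mL, dexamethasone at 1 uM and isobutylmethylxanthine at 0.5 mM. Added to it was vehicle (DMSO at 0.1%), rosiglitazone at 500 nM (ROSI) or tributyltin at 50 nM (TBT). Each group had 4 libraries. Rosiglitazone activates PPARγ, the receptor that drives fat-cell formation, and tributyltin is an organotin that activates the retinoid X receptors and PPARγ. No animal, clone or culture is named for any library, so the spread between libraries may be technical.

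Cells that run short of an amino acid, or that suffer stress in the endoplasmic reticulum or mitochondria, phosphorylate the initiation factor eIF2α. Most translation then slows while that of the Atf4 mRNA increases, so ATF4 protein is set largely after transcription and the mRNA level reports it only in part. ATF4, with partners of the C/EBP family, switches on genes for amino acid synthesis, import and tRNA charging, and further stress regulators such as CHOP (encoded by Ddit3).

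Library totals ran from 4027152 to 7474654 counts. Stromal and adipocyte markers were both present: Pdgfra was at 1339 ± 269 CPM in DMSO and Lpl at 996 ± 310.0 (CPM are counts scaled to library size with TMM factors, given as mean ± SD, n = 4), whereas the stromal marker Eng was at 0.425 ± 0.400 CPM. Of 9 leukocyte and 6 endothelial markers, 4 and 2 reached 1 CPM in any group, and the erythroid list was near 0 apart from Alas2. TBT replicate 4 stood apart from the other TBT libraries: it correlated with DMSO libraries at a mean r of 0.961 and with its own group at 0.953 (across genes), and the ribosomal precursor Rn45s took 6.85% of its counts against 0.399% to 0.67% in TBT replicates 1 to 3, 2.64% to 6.18% in DMSO and 1.36% to 9.27% in ROSI. Subtracting the median log2 deviation of the fifth of genes with the lowest GC content from that of the fifth with the highest content gave -0.58 in TBT replicate 1, -0.46 in replicate 2 and -0.28 in replicate 3. It was 0.11 in TBT replicate 4 and ranged from -0.025 to 0.45 over the other groups.

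Almost the whole set rose with rosiglitazone. Of 39 tested genes, 34 rose and 0 fell in ROSI against DMSO, where 10% of all tested genes rose and 12.6% fell (edgeR quasi-likelihood test, Benjamini-Hochberg adjusted p under 0.05 over all 12323 genes). No listed gene fell at an unadjusted p under 0.05 in edgeR, or at an adjusted p under 0.05 in DESeq2 or limma. The median log2 fold change of the 39 genes was 1.00, against 0.0088 for all tested genes, and all 39 values were positive, from 0.061 (Slc38a2) to 2.24 (Trib3). For 33 of the 39 genes the 4 ROSI libraries lay entirely above the 4 DMSO libraries, a pattern seen in 13% of all tested genes.

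**Figure D1:**
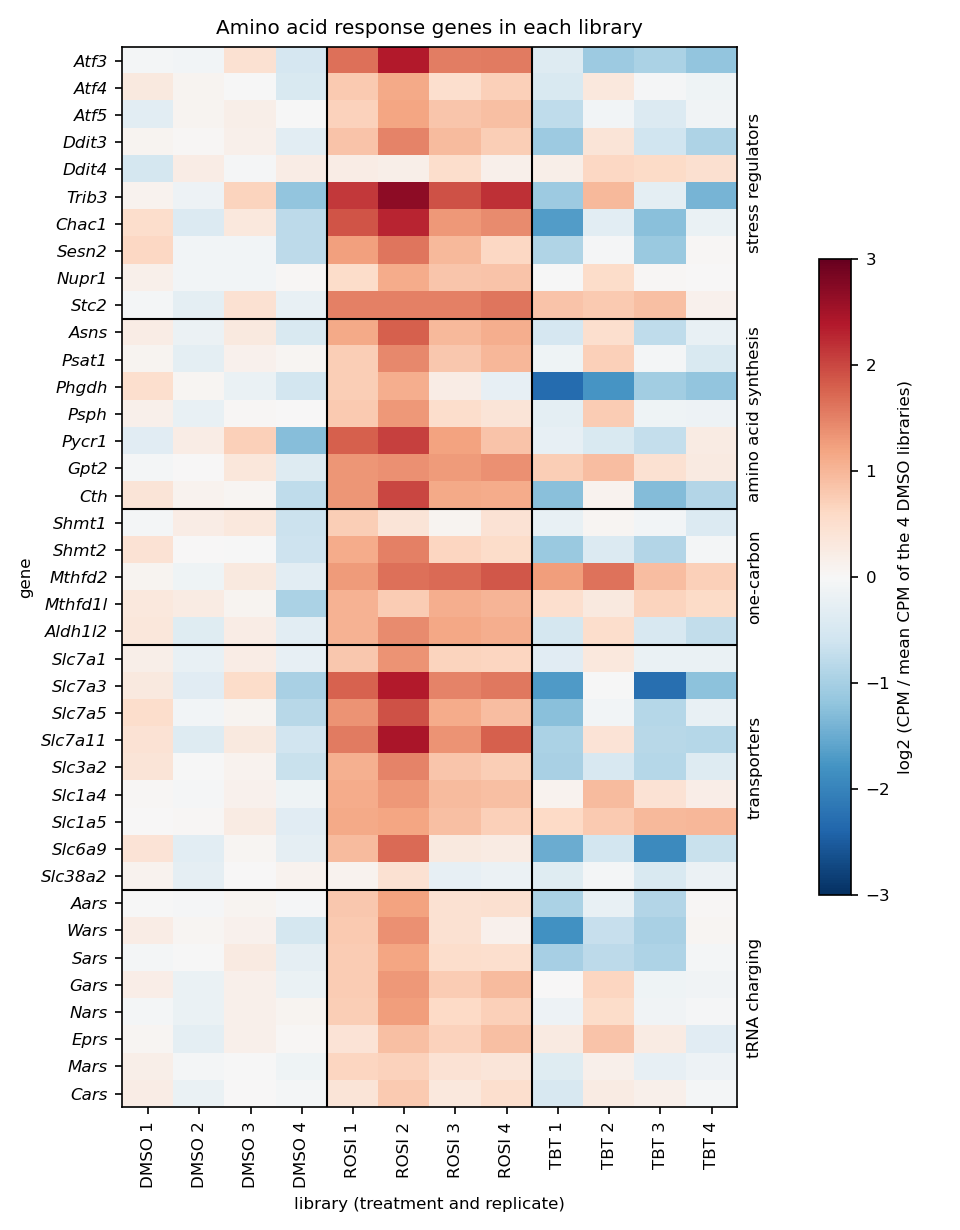
Log2 of the CPM in each library over the mean CPM of the 4 DMSO libraries, for the 39 tested genes in rows (grouped by role) and the 12 libraries in columns. The ROSI columns are red in nearly every row, while the TBT columns mix red (Mthfd2, Slc1a5, Stc2) and blue (Phgdh, Slc6a9, Wars).

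Tributyltin did not move the set in 1 direction. Of the 39 genes, 4 rose (Stc2, Gpt2, Mthfd2 and Slc1a5) and 4 fell (Phgdh, Slc3a2, Slc6a9 and Sars) against DMSO, shares of 10.3% each, where 8.22% of all tested genes rose and 7.03% fell. The median was -0.16, against -0.011 for all tested genes. The ligands differed from each other: 32 of the 39 genes were lower in TBT than in ROSI and 0 were higher, against 11.1% and 12.8% of all tested genes (23.9% in either direction), with a median of -1.21 (0.017 for all tested genes). Without overlap between libraries, 2 genes were higher and 2 lower in TBT against DMSO (7.42% and 8.26% of all tested genes), and 0 were higher and 31 lower in TBT against ROSI (10.9% and 9.89%). None was higher in TBT than in ROSI at an unadjusted p under 0.05 in edgeR. DESeq2 and limma also called none higher, at an adjusted p under 0.05. The doses of the ligands differ 10-fold, so this is a comparison of these treatments and not of matched doses. The comparisons share libraries (ROSI and TBT each with the same DMSO group) and are not independent of each other. By group means, ROSI exceeded DMSO and DMSO exceeded TBT for 26 genes, the order was ROSI, TBT, DMSO for 12, and Ddit4 alone was highest in TBT.

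**Figure D2:**
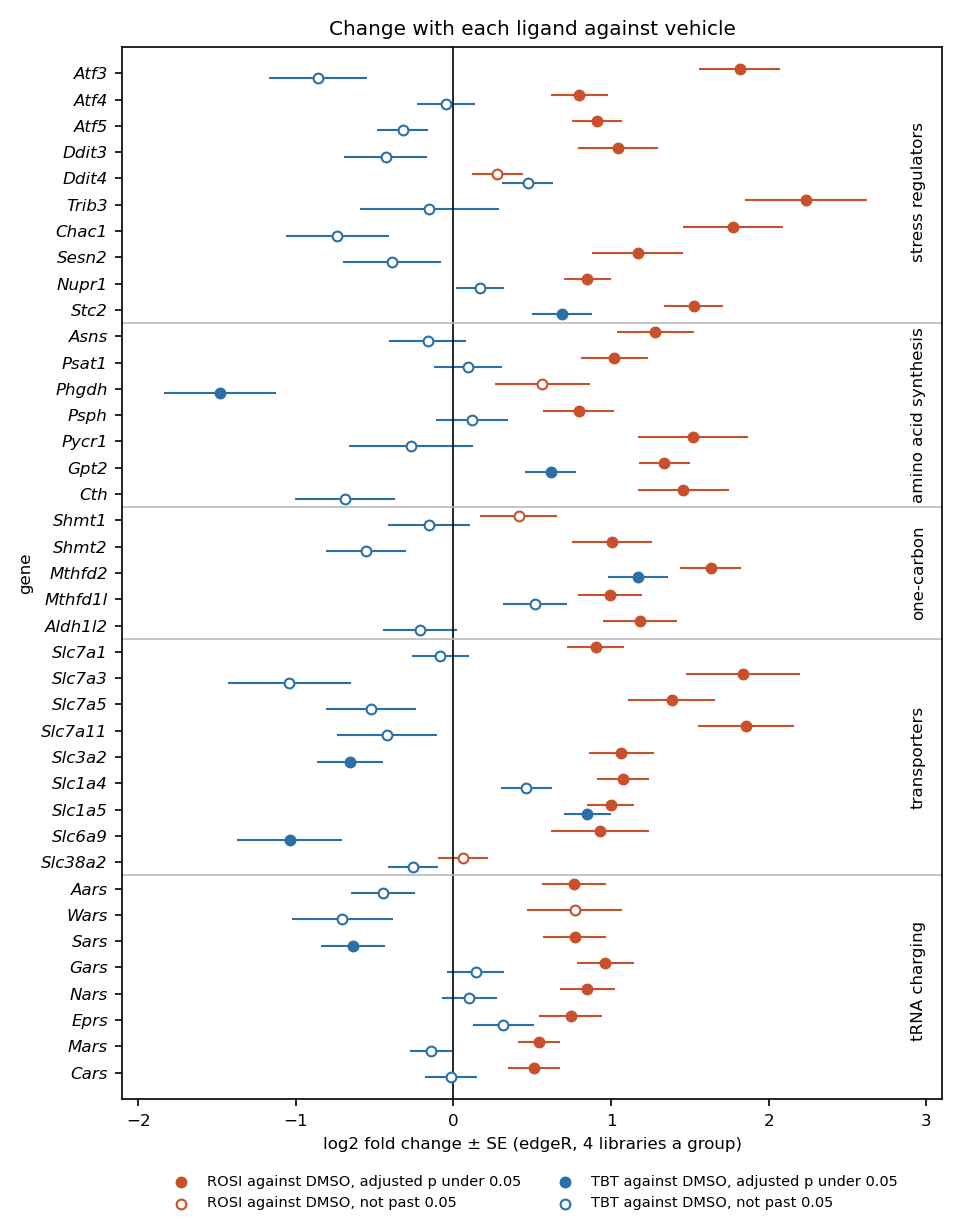
Log2 fold change with its standard error for each tested gene, ROSI against DMSO in orange and TBT against DMSO in blue, with filled points past an adjusted p of 0.05. All 39 orange points lie right of 0 and 34 are filled, whereas the blue points lie on both sides and 8 are filled.

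The roles differed in size more than in direction under rosiglitazone. Median log2 fold changes in ROSI against DMSO were 1.28 for amino acid synthesis (6 of 7 tested genes rose), 1.11 for stress transcription factors and regulators (9 of 10), 1.07 for transporters (8 of 9), 1.01 for folate one-carbon enzymes (4 of 5) and 0.77 for the tRNA synthetases (7 of 8). The synthetases also spanned the narrowest range, 0.51 to 0.96, against 0.28 to 2.24 for the regulators and 0.061 to 1.85 for the transporters. In TBT against ROSI the medians were -1.72 for transporters (7 of 9 lower), -1.45 for synthesis (7 of 7), -1.35 for regulators (9 of 10), -0.79 for synthetases (7 of 8) and -0.57 for one-carbon enzymes (2 of 5). Differences between roles were not tested. All 5 genes that did not pass in ROSI against DMSO, Ddit4, Phgdh, Shmt1, Slc38a2 and Wars, had positive values.

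The promoters were searched for the core of the composite element that ATF4 binds with C/EBP partners. Windows from 250 bases before to 50 after the transcription start were available from RefSeq (GRCm38.p6) for 32 of the 40 genes, 1 of them matched through an older symbol. The core TGATGNAA, searched on both strands (TTNCATCA on the other), was present in at least 1 window of 10 of these 32 genes (31.2%), against 4.51% of all 27025 genes with a window. Among tested genes matched by symbol the share was 2.75%, and among those that rose in ROSI 4.73% (43 of 910). Both shares include the listed genes, and the 10 listed genes with the core are among the 43. The higher share is thus in part that of the list itself. Genes with the core were Atf3, Trib3, Chac1, Nupr1, Asns, Pycr1, Slc7a11, Slc1a4, Aars and Gars. All of these rose in ROSI, but so did 34 of the 39 tested listed genes (87.2%). Atf4, Ddit3 and Mthfd2 had no match in this window and rose as well. The list consists of targets and relatives of ATF4, so its higher share may have been built in and is not an independent result. A match describes the letters and was not measured as binding.

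The 250 bases before the start are shown for the 5 genes with a match there that had the smallest p-values in the expression tests, 5′ to 3′ on the gene's strand in lower case with each match in capitals. They lie at chr1:191183334-191183583 (minus strand), chr2:119350992-119351241 (plus strand), chr3:50443614-50443863 (minus strand), chr8:111033592-111033841 (plus strand) and chr6:7693210-7693459 (minus strand). Counted from the start, the matches begin at base -110 in Atf3, -193 in Chac1, -66 and -47 in Slc7a11, -112 in Aars (with a further match beginning at base 10 after the start, not shown) and -23 in Asns. Slc7a11 is the one window of the listed genes with 2 matches before the start, in opposite orientations.
Atf3: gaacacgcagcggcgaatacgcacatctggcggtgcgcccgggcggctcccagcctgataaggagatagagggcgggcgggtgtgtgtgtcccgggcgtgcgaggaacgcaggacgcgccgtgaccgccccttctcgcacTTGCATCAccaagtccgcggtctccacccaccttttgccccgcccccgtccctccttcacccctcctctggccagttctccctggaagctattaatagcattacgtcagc
Chac1: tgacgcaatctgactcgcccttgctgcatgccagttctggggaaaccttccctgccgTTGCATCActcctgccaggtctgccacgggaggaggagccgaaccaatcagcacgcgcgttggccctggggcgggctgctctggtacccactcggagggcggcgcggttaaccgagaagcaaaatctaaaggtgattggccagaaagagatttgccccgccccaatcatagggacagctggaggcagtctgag
Slc7a11: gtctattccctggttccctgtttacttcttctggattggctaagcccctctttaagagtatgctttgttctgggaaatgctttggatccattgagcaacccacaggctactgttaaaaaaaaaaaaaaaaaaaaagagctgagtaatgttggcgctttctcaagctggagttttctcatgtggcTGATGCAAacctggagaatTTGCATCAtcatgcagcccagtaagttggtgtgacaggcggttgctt
Aars: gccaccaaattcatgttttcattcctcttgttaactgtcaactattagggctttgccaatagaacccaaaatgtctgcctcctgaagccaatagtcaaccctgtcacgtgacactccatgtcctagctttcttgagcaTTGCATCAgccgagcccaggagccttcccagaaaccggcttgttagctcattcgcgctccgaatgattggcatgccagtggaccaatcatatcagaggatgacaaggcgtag
Asns: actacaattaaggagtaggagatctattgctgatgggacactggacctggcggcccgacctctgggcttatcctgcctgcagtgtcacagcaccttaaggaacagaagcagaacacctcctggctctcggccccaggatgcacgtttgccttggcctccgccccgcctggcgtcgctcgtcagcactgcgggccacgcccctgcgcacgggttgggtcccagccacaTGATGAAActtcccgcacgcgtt

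Among the transcription factors, Atf4 itself rose with rosiglitazone. It stood at 266, 232, 218 and 159 CPM in DMSO replicates 1 to 4, at 375, 479, 309.7 and 358 in ROSI and at 159.8, 273, 214 and 199.8 in TBT. The ROSI libraries lay above both other groups, which overlapped (log2 fold change ± SE 0.80 ± 0.18, edgeR adjusted p = 0.0038 for ROSI against DMSO and -0.047 ± 0.18, edgeR adjusted p = 0.88 for TBT against DMSO). Ddit3, which encodes CHOP, a factor of prolonged stress, gave 30.6, 29.5, 31.8 and 23.1 CPM in the DMSO libraries, 52.4, 80.7, 55.2 and 48.0 in ROSI and 13.4, 37.4, 19.0 and 15.2 in TBT (1.04 ± 0.25, edgeR adjusted p = 0.0060 for ROSI against DMSO). In TBT replicate 2 Ddit3 lay above every DMSO library, whereas the other 3 TBT libraries lay below them. Atf3, a factor induced by stress, gave 4.75, 4.68, 6.77 and 3.48 CPM in the DMSO libraries, 15.5, 25.6, 14.4 and 14.4 in ROSI and 3.75, 2.32, 2.57 and 2.17 in TBT, and was lower in TBT than in ROSI (log2 fold change -2.67 ± 0.28, edgeR adjusted p = 5.1e-06). Against DMSO, Atf3 rose in ROSI (1.82 ± 0.26, edgeR adjusted p = 6.2e-05) and did not pass in TBT (-0.86 ± 0.31, edgeR adjusted p = 0.068). Atf5, an ATF4-related factor, gave 72.9, 96.9, 103 and 90.7 CPM in the DMSO libraries, 147, 205, 161 and 169.5 in ROSI and 53.4, 85.5, 68.7 and 83.7 in TBT. All 4 ROSI libraries were above all others, and the difference between ligands was -1.23 ± 0.16 (edgeR adjusted p = 4.9e-05).

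The other regulators included Trib3, with the largest fold change of the set in ROSI against DMSO. Trib3, a pseudokinase that dampens ATF4 and AKT signalling, gave 6.18, 5.15, 9.12 and 2.53 CPM in the DMSO libraries, 25.1, 36.8, 21.7 and 26.1 in ROSI and 2.68, 11.2, 4.71 and 2.17 in TBT. It rose by 2.24 ± 0.39 in ROSI (edgeR adjusted p = 4.0e-04), a 4.72-fold difference, while the TBT and DMSO libraries overlapped. Chac1, which degrades glutathione, gave 51.6, 26.9, 44.6 and 20.9 CPM in the DMSO libraries, 132, 175, 88.5 and 95.9 in ROSI and 11.3, 28.8, 15.0 and 31.5 in TBT (1.77 ± 0.32, edgeR adjusted p = 5.0e-04 for ROSI against DMSO, -2.51 ± 0.33, edgeR adjusted p = 5.0e-05 for TBT against ROSI). Stc2, a secreted glycoprotein, behaved otherwise: it gave 13.5, 11.5, 19.2 and 12.0 CPM in the DMSO libraries, 40.4, 40.1, 40.2 and 42.7 in ROSI and 25.4, 24.3, 26.3 and 15.4 in TBT. Stc2 rose in ROSI (1.52 ± 0.19, edgeR adjusted p = 1.5e-05) and in TBT (0.69 ± 0.19, edgeR adjusted p = 0.024), and was lower in TBT than in ROSI (-0.83 ± 0.18, edgeR adjusted p = 0.0034). Sesn2, an inhibitor of mTORC1 signalling, and Nupr1, a stress-induced chromatin protein, rose in ROSI by 1.17 ± 0.29 and 0.85 ± 0.15 and were lower in TBT than in ROSI. Ddit4, another mTORC1 inhibitor and a target of glucocorticoids, passed in no comparison, with mean CPM of 71.6 ± 15.9 for DMSO, 86.8 ± 11.3 for ROSI and 99.5 ± 13.4 for TBT (edgeR adjusted p = 0.057 for TBT against DMSO).

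**Figure D3:**
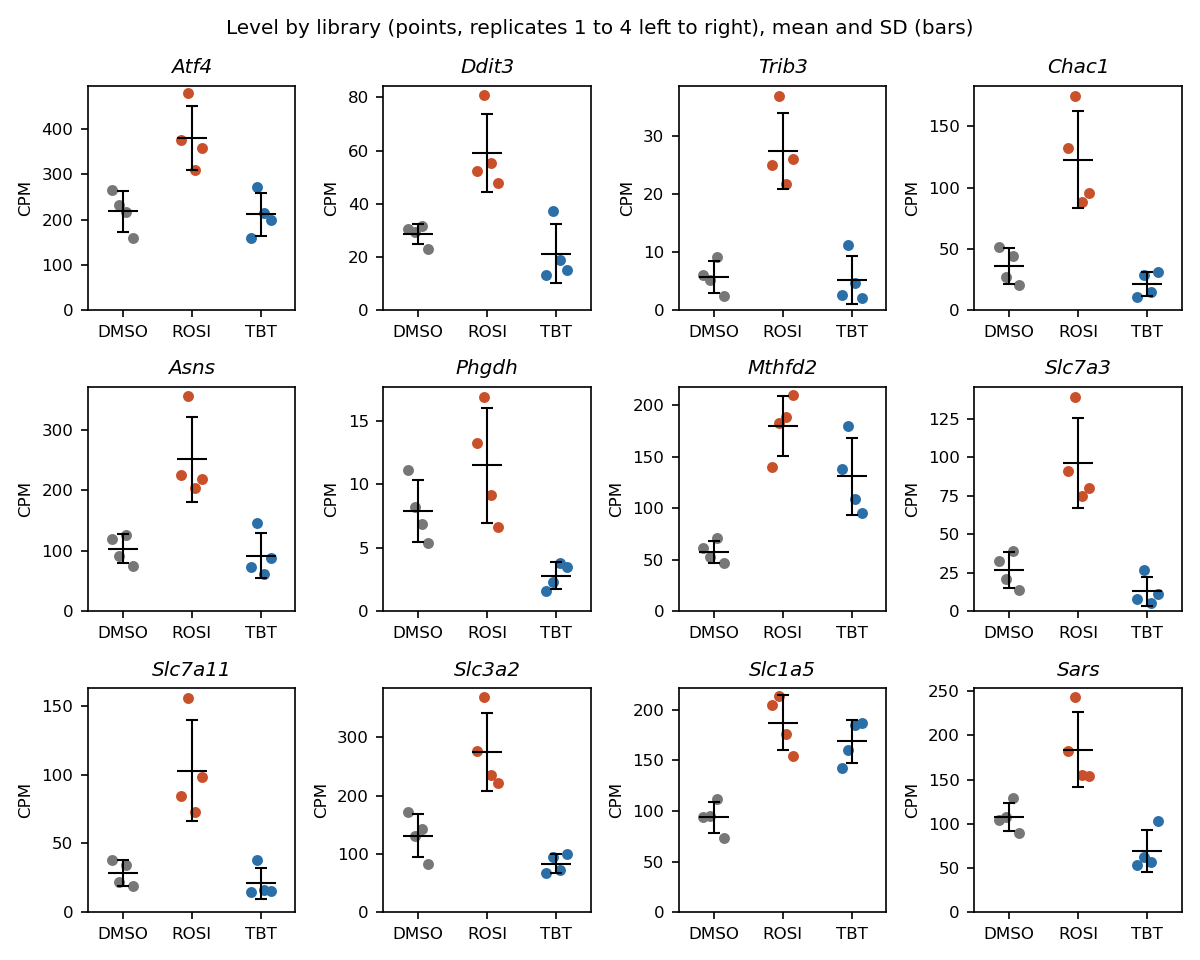
CPM in each library for 12 of the genes, with points in replicate order, a long bar at the group mean and whiskers of 1 SD (n = 4). ROSI lies above both other groups for Atf4, Trib3, Asns, Slc7a3 and Slc7a11, TBT lies with ROSI for Mthfd2 and Slc1a5, and TBT lies lowest for Phgdh.

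Of the synthesis enzymes, Asns, asparagine synthetase and a standard reporter of the ATF4 response, gave 119.7, 91.7, 126 and 75.2 CPM in the DMSO libraries, 225, 356, 204 and 219 in ROSI and 72.9, 146, 61.2 and 88.9 in TBT. It rose in ROSI (1.28 ± 0.24, edgeR adjusted p = 9.4e-04), and TBT against DMSO did not pass (-0.16 ± 0.24, edgeR adjusted p = 0.68). Cth, which makes cysteine from cystathionine, gave 19.2, 15.9, 15.5 and 8.69 CPM in the DMSO libraries, 36.9, 59.4, 32.7 and 32.3 in ROSI and 6.25, 16.0, 5.99 and 8.05 in TBT. In TBT, replicates 1, 3 and 4 lay below all DMSO libraries and replicate 2 lay among them. Cth passed in ROSI (1.46 ± 0.29, edgeR adjusted p = 0.0013) and not in TBT against DMSO (-0.69 ± 0.32, edgeR adjusted p = 0.15). Gpt2, the mitochondrial alanine aminotransferase, gave 41.6, 44.0, 55.4 and 33.4 CPM in the DMSO libraries, 109, 113, 106 and 113 in ROSI and 72.4, 82.6, 60.1 and 52.6 in TBT. It rose in ROSI (1.34 ± 0.16, edgeR adjusted p = 1.2e-05) and in TBT (0.62 ± 0.16, edgeR adjusted p = 0.018), and was lower in TBT than in ROSI (-0.72 ± 0.16, edgeR adjusted p = 0.0036).

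Calls against DMSO differed along the serine pathway, although differences between its genes were not tested. Phgdh, its first enzyme, was low, at 11.2, 8.19, 6.91 and 5.37 CPM in the DMSO libraries, 13.3, 16.9, 9.18 and 6.62 in ROSI and 1.61, 2.32, 3.85 and 3.48 in TBT. Every TBT library lay below every other library: Phgdh fell in TBT against DMSO (-1.48 ± 0.35, edgeR adjusted p = 0.011), while in ROSI it did not pass (0.56 ± 0.30, edgeR adjusted p = 0.21). Psat1 and Psph, the next enzymes, rose in ROSI by 1.02 ± 0.21 and 0.79 ± 0.23 and differed from DMSO in TBT by 0.092 ± 0.21 and 0.12 ± 0.23 (edgeR adjusted p = 0.80 and 0.75). Psat1 had mean CPM of 265 ± 33.9 for DMSO, 538 ± 128 for ROSI and 283 ± 106 for TBT. In TBT against ROSI, Phgdh (-2.043 ± 0.344), Psat1 (-0.929 ± 0.214) and Psph (-0.675 ± 0.225) were all lower. Pycr1, a proline synthesis enzyme, rose in ROSI by 1.52 ± 0.35 from 4.22 ± 2.21 CPM. Cbs, which makes cystathionine, was below the filter, with 25, 35 and 15 counts over the DMSO, ROSI and TBT libraries.

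The one-carbon enzymes, which pass carbon units from serine to folate, had the smallest median difference between the ligands. Mthfd2, the mitochondrial methylenetetrahydrofolate dehydrogenase, gave 61.1, 52.9, 71.3 and 46.9 CPM in the DMSO libraries, 139.7, 182, 188 and 209.6 in ROSI and 138, 180.1, 109.5 and 95.7 in TBT. Both ligand groups lay above DMSO without overlap (1.63 ± 0.19, edgeR adjusted p = 9.6e-06 in ROSI and 1.17 ± 0.19, edgeR adjusted p = 9.4e-04 in TBT), and the difference between them did not pass (-0.46 ± 0.19, edgeR adjusted p = 0.080). Mthfd1l, which acts after Mthfd2 in mitochondria, gave 51.1, 48.2, 43.1 and 21.02 CPM in the DMSO libraries, 84.0, 69.4, 87.6 and 82.2 in ROSI and 57.7, 49.8, 64.6 and 60.9 in TBT. It rose in ROSI (0.99 ± 0.20, edgeR adjusted p = 0.0016) and did not pass in TBT against DMSO (0.52 ± 0.20, edgeR adjusted p = 0.090) or against ROSI (edgeR adjusted p = 0.092). Shmt2, the mitochondrial serine hydroxymethyltransferase, differed from these: it gave 123, 90.5, 90.1 and 58.5 CPM in the DMSO libraries, 195, 257, 142 and 132 in ROSI and 42.0, 68.5, 49.0 and 87.0 in TBT. Shmt2 rose in ROSI by 1.01 ± 0.25 and was lower in TBT than in ROSI (-1.56 ± 0.26, edgeR adjusted p = 3.8e-04). Aldh1l2, a mitochondrial formyltetrahydrofolate dehydrogenase, gave 222, 137, 204 and 141 CPM in the DMSO libraries, 365, 468, 393 and 375 in ROSI and 122, 253, 127 and 105 in TBT (1.19 ± 0.23, edgeR adjusted p = 0.0012 for ROSI against DMSO). The cytosolic Shmt1 was low, at 5.22 ± 1.42 CPM in DMSO, and passed in no comparison.

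The transporters had the widest median gap between the ligands. Slc7a3, a cationic amino acid carrier, gave 33.0, 21.3, 39.5 and 13.8 CPM in the DMSO libraries, 91.0, 139, 75.0 and 80.2 in ROSI and 8.22, 26.8, 5.56 and 11.5 in TBT. It was lower in TBT than in ROSI (-2.88 ± 0.39, edgeR adjusted p = 6.4e-05), the largest such difference of the 39 genes, whereas TBT against DMSO did not pass (-1.04 ± 0.39, edgeR adjusted p = 0.078). Slc7a11, the cystine and glutamate exchanger xCT, gave 38.2, 21.8, 34.7 and 19.12 CPM in the DMSO libraries, 84.2, 156, 72.8 and 98.5 in ROSI and 14.8, 38.02, 16.0 and 15.7 in TBT (1.85 ± 0.30, edgeR adjusted p = 2.5e-04 for ROSI against DMSO). Its partner Slc3a2, the CD98 heavy chain shared by several light chains, gave 172, 130.3, 142 and 82.2 CPM in the DMSO libraries, 276, 369, 235 and 221 in ROSI and 66.7, 94.0, 73.0 and 100.5 in TBT. Slc3a2 rose in ROSI (1.07 ± 0.21, edgeR adjusted p = 0.0011) and fell in TBT (-0.66 ± 0.21, edgeR adjusted p = 0.044). Slc7a5, the leucine carrier LAT1 that also pairs with Slc3a2, rose in ROSI by 1.38 ± 0.28 and was lower in TBT than in ROSI (log2 fold change -1.91 ± 0.28).

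Slc1a5, the glutamine carrier ASCT2, gave 94.1, 95.5, 112 and 73.7 CPM in the DMSO libraries, 205, 214, 176 and 155 in ROSI and 143, 161, 185 and 187 in TBT. Both ligand groups lay above DMSO without overlap (1.00 ± 0.15, edgeR adjusted p = 9.7e-05 in ROSI, 0.85 ± 0.15, edgeR adjusted p = 0.0017 in TBT), and they did not differ from each other past the threshold (-0.15 ± 0.15, edgeR adjusted p = 0.48). Slc1a4, the related ASCT1, rose in ROSI by 1.07 ± 0.16 and did not pass in TBT against DMSO (0.46 ± 0.16, edgeR adjusted p = 0.064). It was lower in TBT than in ROSI (-0.61 ± 0.16, edgeR adjusted p = 0.013). Slc7a1, another cationic carrier, rose in ROSI by 0.90 ± 0.18 and was at -0.083 ± 0.18 in TBT against DMSO. Slc6a9, the glycine carrier GlyT1, rose in ROSI by 0.93 ± 0.31 and fell in TBT (-1.04 ± 0.34, edgeR adjusted p = 0.045). Exons of Slc6a9 share 38.8% of their bases with Ccdc24 on the opposite strand in GENCODE M21, and the libraries keep no strand, so reads of the overlap cannot be told apart. Opposite-strand overlaps also touch Psph (26.1% shared with Cct6a), Aldh1l2 (17.3% with D10Wsu102e) and the neighbours Ddit3 and Mars (7.6% of Ddit3). Aars shares 23.1% with Exosc6 on its own strand. Of the listed genes, 9 share exon bases with another gene, some of them by less than these. Slc38a2, the sodium-coupled SNAT2, passed in no comparison (0.061 ± 0.16, edgeR adjusted p = 0.84 for ROSI against DMSO).

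The cytosolic tRNA synthetases, which load amino acids on tRNA, moved by small and even steps in ROSI. Gars, for glycine, gave 129, 96.6, 123 and 96.9 CPM in the DMSO libraries, 189, 276, 189 and 214 in ROSI and 113, 173, 101 and 103 in TBT (0.96 ± 0.18, edgeR adjusted p = 7.8e-04 for ROSI against DMSO). Mars, for methionine, gave 94.1, 79.5, 81.6 and 76.0 CPM in the DMSO libraries, 129.9, 134, 112 and 107 in ROSI and 64.0, 92.2, 69.7 and 74.2 in TBT, a narrow range in which all ROSI libraries still lay above all others (0.54 ± 0.13, edgeR adjusted p = 0.0065 for ROSI against DMSO). In TBT against DMSO, Sars alone of the 8 passed. Sars, for serine, gave 104, 108, 129 and 90.2 CPM in the DMSO libraries, 182, 244, 155 and 154 in ROSI and 54.0, 63.1, 56.9 and 104 in TBT, and fell in TBT against DMSO (-0.64 ± 0.20, edgeR adjusted p = 0.042). Aars, for alanine, gave 152, 148, 162 and 147 CPM in the DMSO libraries, 265, 348, 208 and 211 in ROSI and 78.8, 131, 83.2 and 155 in TBT, and did not pass in TBT against DMSO (-0.45 ± 0.20, edgeR adjusted p = 0.14). For Sars and Aars, TBT replicates 1 to 3 lay below every DMSO library and TBT replicate 4 lay among them. Wars, for tryptophan, had the same arrangement, at 9.12, 20.1, 16.5 and 33.7 CPM in TBT against 32.2 ± 6.81 in DMSO, and did not pass in ROSI (0.77 ± 0.30, edgeR adjusted p = 0.079). Nars (asparagine), Eprs (glutamate and proline) and Cars (cysteine) rose in ROSI by 0.85 ± 0.17, 0.74 ± 0.20 and 0.51 ± 0.16 and stood at 0.10 ± 0.17, 0.32 ± 0.20 and -0.015 ± 0.17 in TBT against DMSO.

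Single libraries set the higher or lower end of many of these genes at once. ROSI replicate 2 had the highest value of its group for 33 of the 39 genes, against 27.7% of all tested genes, and TBT replicate 2 for 26 of 39, against 24.6%. DMSO replicate 4 had the lowest value of its group for 26 of 39 and TBT replicate 1 for 21 of 39. The share of all tested genes lowest in these libraries was not determined, so these counts lack a background. By the highest values, many of the genes thus moved together among the ROSI libraries and among the TBT libraries, as well as between treatments. Without ROSI replicate 2, 30 of the 34 calls in ROSI against DMSO remained. The calls of Slc6a9 (edgeR adjusted p = 0.22), Cars (0.12), Psph (0.079) and Aars (0.0503) ended without it, the highest values over all alternatives. The calls of Slc6a9 and Cars also ended without DMSO replicate 2, 3 or 4, that of Psph without DMSO replicate 2, that of Slc6a9 without ROSI replicate 1 and that of Cars without ROSI replicate 4. Without ROSI replicate 2 the log2 fold change of Slc6a9 was 0.52. In TBT against ROSI, the calls of Psph, Slc1a4 and Cars ended without ROSI replicate 2 or TBT replicate 1, and that of Psph also without ROSI replicate 1 or TBT replicate 3 (edgeR adjusted p of up to 0.16, 0.054 and 0.10). Other genes gained a call with a library left out: Wars in ROSI against DMSO without ROSI replicate 4, TBT replicate 1 or TBT replicate 4, and in TBT against ROSI Mthfd2 and Eprs without TBT replicate 2 and Mthfd1l without DMSO replicate 4. All of these also passed in at least 1 fit that kept every library: Wars, Mthfd1l and Mthfd2 with no filter on low counts, and Eprs with a GC term. Wars and Mthfd1l passed as well with only the 2 groups fitted, which leaves out the libraries of the other group.

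The calls in TBT against DMSO depended on the libraries more than those in ROSI. Mthfd2, Slc1a5 and Phgdh passed in every alternative fit. Without TBT replicate 4, which stood nearest to DMSO, 7 genes rose and 8 fell, where 16.6% and 16.1% of all genes tested in that fit rose and fell, so the shares of the listed genes (17.9% and 20.5%) lay near the background. Eprs (0.50), Ddit4 (0.48) and Slc1a4 (0.55) joined the higher genes, and Shmt2 (-0.75), Wars (-1.07), Chac1 (-0.95) and Aars (-0.62) the lower ones, with edgeR adjusted p of 0.0079 to 0.033. Without TBT replicate 2, which was high for these genes, Ddit3, Cth and Slc7a3 were lower than in DMSO as well. Stc2 lost its call without DMSO replicate 1, 2 or 4 or TBT replicate 1, 2 or 3, and Gpt2 without DMSO replicate 1 or 4 or TBT replicate 1 or 2 (edgeR adjusted p of up to 0.077 and 0.063). Slc3a2 and Sars lost theirs without DMSO replicate 1, 2 or 3, ROSI replicate 1 or TBT replicate 1, 2 or 3, Slc3a2 also without ROSI replicate 3, and Slc6a9 without any 1 DMSO replicate, ROSI replicate 1 or TBT replicate 1 or 3 (up to 0.15, 0.13 and 0.13).

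GC content moved with the TBT group and was examined for the same genes. The listed genes had a median GC content of 53.4%, against 49.6% for all tested genes with a value. Across all 12222 of these, GC content and the log2 fold change in TBT against DMSO had a Spearman correlation of -0.31, and across the 39 listed genes it was -0.19 (a description across genes of the same libraries). With a GC term in the edgeR fit, chosen after seeing the data, 6 listed genes rose in TBT (Ddit4 and Slc1a4 joined) and 1 fell. Of all tested genes, 7.21% rose and 6.09% fell in that fit. Phgdh kept its call (-1.25, edgeR adjusted p = 0.020), whereas Sars (-0.56, 0.055), Slc3a2 (-0.55, 0.076) and Slc6a9 (-0.81, 0.11) lost theirs. In ROSI against DMSO the same 34 genes rose with this term, where 11.4% of all tested genes rose. Across the listed genes GC content and fold change had a Spearman correlation of -0.08 there. In TBT against ROSI 32 genes were again lower (9.96% of all tested genes), 30 of them the same, with Psph and Cars lost and Eprs and Slc38a2 gained.

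**Figure D4:**
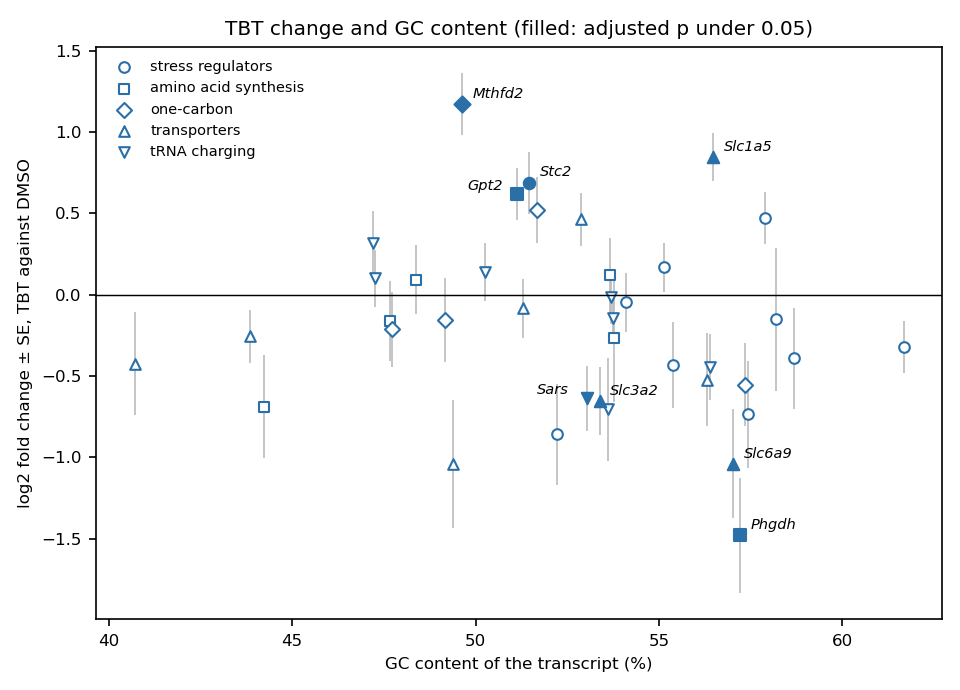
Log2 fold change in TBT against DMSO with its standard error, against the GC content of the transcript, for the 39 tested genes, with a marker for each role and filled markers past an adjusted p of 0.05. Among the filled genes, Mthfd2, Gpt2 and Stc2 lie between 49.6% and 51.5% GC and Phgdh and Slc6a9 at 57.2% and 57.0%, while Slc1a5 is both GC-rich and higher.

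Genes around the pathway moved in part. Of 14 genes for eIF2α kinases and their counterparts, 2 rose and 1 fell in ROSI (14.3% and 7.14%, median 0.13). Of all tested genes 10% rose and 12.6% fell there, so these shares lay near the background. Ppp1r15a (GADD34), the stress-induced phosphatase subunit that reverses eIF2α phosphorylation, had mean CPM of 24.9 ± 3.30 for DMSO, 51.6 ± 15.1 for ROSI and 13.9 ± 4.58 for TBT. It rose in ROSI (1.05 ± 0.22, edgeR adjusted p = 0.0017) and fell in TBT (-0.85 ± 0.23, edgeR adjusted p = 0.022). Its constitutive counterpart Ppp1r15b rose in ROSI (0.56 ± 0.12, edgeR adjusted p = 0.0025) and in TBT (0.45 ± 0.12, edgeR adjusted p = 0.021). Ppp1r15a and Ppp1r15b were the only calls of the list in TBT against DMSO. That is 7.14% of the list in each direction, where 8.22% of all tested genes rose and 7.03% fell. Eif2ak2 (PKR), the kinase that senses double-stranded RNA and is itself induced by interferon, fell in ROSI (log2 fold change -1.39 ± 0.22). Of 14 tested ATF4 partners and other stress-induced genes, 6 rose and 2 fell in ROSI (42.9% and 14.3%, median 0.20). Cdkn1a (p21), an inhibitor of the cell cycle, rose by 1.30 ± 0.20 and Trib2, a relative of Trib3, fell in ROSI (log2 fold change -0.84 ± 0.12).

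The tRNA synthetases outside the list had smaller medians than those in it, a difference that was not tested. Of 13 other cytosolic synthetases 4 rose in ROSI (30.8%, against 10% of all tested genes), among them Rars (0.56 ± 0.13) and Lars (0.63 ± 0.18). The median of the 13 was 0.34. The 16 tested mitochondrial synthetases had a median of 0.088. Of 16 other amino acid transporters 3 rose and 3 fell in ROSI (18.8% each, where 10% of all tested genes rose and 12.6% fell). Slc16a10, a carrier of aromatic amino acids, was at 1.93 ± 0.27 and Slc7a6 at -0.60 ± 0.13. In TBT against DMSO 2 rose and 3 fell (12.5% and 18.8%, against 8.22% and 7.03% of all tested genes). These included Slc43a2, a neutral amino acid carrier, at 1.24 ± 0.15 and the glutamate carrier Slc1a3 at -0.69 ± 0.19. Of 13 other folate and glycine cleavage enzymes 5 rose in ROSI (38.5%, against 10% of all tested genes). Among them were Dld (0.92 ± 0.14) and the mitochondrial folate carrier Slc25a32 (0.47 ± 0.14). Slc25a32 rose in TBT as well (0.56 ± 0.14), as Mthfd2 did, while Tyms, thymidylate synthase, fell in TBT (-0.96 ± 0.15).

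In ROSI, calls among other enzymes of amino acid metabolism and among endoplasmic reticulum genes were mostly upward. Of 16 such enzymes 8 rose and 1 fell in ROSI (50% and 6.25%), where 10% of all tested genes rose and 12.6% fell. Bcat2, the mitochondrial branched-chain aminotransferase, was at 1.48 ± 0.27. In TBT against DMSO 2 of these enzymes rose and 1 fell (12.5% and 6.25%, against 8.22% and 7.03% of all tested genes). Mat2a, which makes S-adenosylmethionine, was at 0.57 ± 0.13 and Got2 at -0.49 ± 0.12. Of 17 chaperones and related genes of the ATF6 and XBP1 arms, 15 rose in ROSI (88.2%). Xbp1 and Atf6 themselves are counted among the 17. The median of 1.09 was close in size to that of the 39 listed genes. All 17 were lower in TBT than in ROSI (median -1.06), where 11.1% of all tested genes were lower. Hyou1, one of these chaperones, had mean CPM of 114 ± 22.6 for DMSO, 273 ± 79.5 for ROSI and 66.9 ± 15.2 for TBT.

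**Figure D5:**
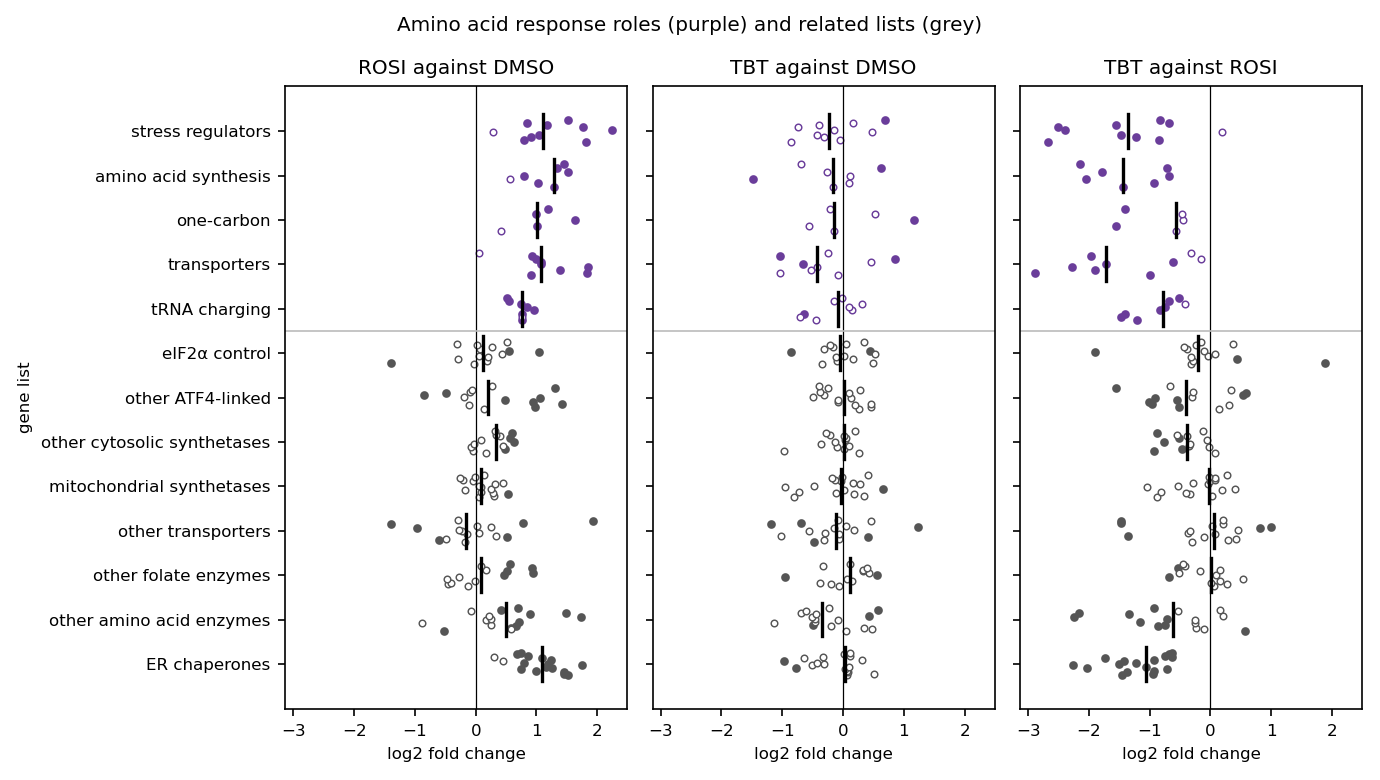
Log2 fold changes of single genes (points, filled past an adjusted p of 0.05) and list medians (black bars) in the 3 comparisons, for the 5 roles in purple and 8 related lists in grey. The role medians lie between 0.77 and 1.28 in ROSI against DMSO. Among the related lists, the endoplasmic reticulum (ER) chaperones and related genes, at 1.09, lie in that range.

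Markers of fat cells and of stromal cells moved with the treatments too. The summed level of 10 adipocyte markers ran from 1146 to 2435 CPM in DMSO, from 5622 to 7179 in ROSI and from 2889 to 3958 in TBT. Of the 10, 8 rose in ROSI, and 4 rose and 1 fell in TBT against DMSO. Of all tested genes, 10% rose in ROSI, and 8.22% rose and 7.03% fell in TBT against DMSO. Lpl, Fabp4 and Cd36 made up most of the sum and rose in both, whereas Adipoq (adiponectin) fell in TBT (-2.17 ± 0.29, edgeR adjusted p = 1.9e-04) and Cebpa did not pass there (-0.045 ± 0.20, edgeR adjusted p = 0.90). The summed level of 10 stromal markers ran the other way, from 3247 to 3846 CPM in DMSO, 1613 to 1730 in ROSI and 2367 to 2970 in TBT. Of the 9 tested, 4 fell in ROSI, where 12.6% of all tested genes fell. Among these 4 were Pdgfra (-1.54 ± 0.15), Ly6a (-2.87 ± 0.30) and Col1a1 (-1.39 ± 0.22). The adipocyte sum was higher in every TBT library than in every DMSO library, and its relation to the listed genes was not tested. These are bulk libraries, in which more cells of a type and more RNA per cell cannot be told apart, and the part of cell composition in the ROSI values was not tested. Reads on 1507 sensory receptor genes, a gauge of background, made up 295 to 776 CPM in DMSO, 62.8 to 76.0 in ROSI and 115 to 195 in TBT (before TMM scaling). They were highest in DMSO and lowest in ROSI, and their part in the result was not tested.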

How the data were processed

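RNA of 12 samples was sequenced on SOLiD as single 50 nt reads after ribosomal RNA removal, without strand, per the labels' protocols. Read counts per gene symbol, and log2 (regularized-log) values made from counts, were deposited by the authors. The submitters' processing notes name mm9, FastQC, SAMtools and DESeq2; which aligner, counter or annotation served is not given in the sources used here.

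Counts were fitted in 1 edgeR 4.0.16 quasi-likelihood model (limma 3.58.1, R 4.3.3) over all 12 libraries with TMM scaling, after filterByExpr kept 12323 genes. P-values were Benjamini-Hochberg adjusted over all of these, at 0.05. The script was tested on simulated data. Levels are CPM after TMM scaling. Alternatives were DESeq2 1.42.0, limma on the deposited log2 values, other scalings, filters, a replicate term, each library left out and, added after the data were seen, a GC offset. The members, their roles and the related lists were chosen with earlier results of these data known. All 40 members are accounted for. Values in every library are given for Atf4, Ddit3, Trib3, Asns and, per role, up to 4 genes with the smallest p in any comparison, and up to 2 genes per related list and comparison are named by smallest p; some of these are not reported here.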

Additional observations from a re-analysis of the deposited data

Results flagged for a closer look

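In 11 of 117 gene and treatment groups of 4 libraries, 1 library lay further from the rest than Dixon's 95% critical value allows, where chance gives about 1 in 20. TBT replicate 2 was the high library in 6 of them. There Nupr1 stood at 82.0 CPM against 55.8 to 56.9 in the other TBT libraries, Psph at 68.5 against 32.7 to 36.8 and Aldh1l2 at 253 against 105 to 127. In the same library Slc7a11 stood at 38.02 CPM against 14.8 to 16.0, Gars at 173 against 101 to 113 and Nars at 400.7 against 246 to 266. ROSI replicate 2 was the high library in 3: Atf3 at 25.6 CPM against 14.4 to 15.5, Asns at 356 against 204 to 225 and Cth at 59.4 against 32.3 to 36.9. Stc2 in ROSI replicate 4 was 42.7 CPM against 40.1 to 40.4, and Psat1 in DMSO replicate 2 was low, at 215 against 277 to 288.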

How the results depend on the processing

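No listed gene with a call changed direction under any alternative. In ROSI against DMSO 30 of 34 calls and in TBT against ROSI 29 of 32 held in every fit, but in TBT against DMSO 3 of 8. With each library left out in turn, 30 to 35 genes rose in ROSI against DMSO, where 7.48% to 12.9% of all genes tested rose. In TBT against DMSO 2 to 7 rose (4.18% to 16.6% of all) and 1 to 8 fell (3.86% to 16.1%). Lower in TBT than in ROSI were 29 to 34 (6.32% to 18.3% of all). A 2-fold minimum left 19 higher in ROSI against DMSO, where it left 3.22% of all tested genes. It left 1 higher and 2 lower in TBT against DMSO (1.56% and 2.57% of all) and 20 lower in TBT than in ROSI (3.42%). In TBT against DMSO, 7 rose and 8 fell with no filter on low counts (5.49% and 5.73% of all genes in that fit). With only those 2 groups fitted 2 rose and 2 fell (5.12% and 4.84% of all), and with the GC offset 1 fell (6.09% of all). The causes were not tested. The regularized-log values, shrunken by construction, gave the same ROSI counts. A replicate block left 32 higher in ROSI against DMSO (Slc6a9 and Cars lost), where 8.04% of all tested genes rose. It left 4 higher and 2 lower in TBT against DMSO (5.11% and 4.3% of all) and 31 lower in TBT than in ROSI (8.23%). Libraries with the same number did not deviate together (r from -0.43 to 0.14 over 12 pairs, against -0.22 to 0.38 over 36 others). Skews of single libraries, as in TBT replicate 4, enter these values, so whether the numbers pair libraries remains unknown. Low counts limit precision, as for Phgdh (mean of 2.81 CPM in TBT, 55 counts in all) and Trib3 (5.19 CPM).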
